A study of Mus musculus with 6 samples.

Results

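S100 proteins are small calcium-binding proteins that mostly work as dimers. Some act inside cells on the cytoskeleton and on annexins, and some are released and act on receptors such as RAGE and TLR4. In obese fat they come from several cell types: S100A8 and S100A9 form calprotectin, an abundant protein of neutrophils and monocytes, S100A4 and S100A6 are made by leukocytes and stromal cells, and S100A1, S100A16 and S100B are also found in adipocytes. The S100 group described here holds 10 genes, chosen by symbol, of the 22322 genes in the deposited table: S100a1, S100a4, S100a6, S100a8, S100a9, S100a10, S100a11, S100a13, S100a16 and S100b. All 10 passed the filter on low counts.

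Their RNA was measured in epididymal white adipose tissue in 3 libraries from CD44 KO and 3 from wild type mice. All 6 came from a high fat diet of 17 weeks, so neither genotype gives values for lean fat. CD44 is a surface receptor for hyaluronan. The sources used here do not give the kind of knockout allele, the strain or the age of the mice. They do not state that the 3 libraries of a genotype came from separate animals. The p-values therefore refer to differences between these libraries, whose spread may not be that between animals.

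Library totals ran from 15543317 to 18765009 expected counts. Cd44, the targeted gene, had 28, 50 and 34 counts in CD44 KO and 3091, 10580 and 6000 in wild type. Adipocyte markers summed to 27051 to 47840 FPKM (reads per length and library size) in CD44 KO and 8721 to 24327 FPKM in wild type. CD44 KO replicate 2 also held epididymis transcripts, whose 13 markers summed to 8379 FPKM there and to 0.75 to 5.80 FPKM in the other 5 libraries. Markers of mesothelium, the lining of the fat pad, summed to 42.7, 264 and 23.7 FPKM in CD44 KO replicates 1 to 3 and to 3.01 to 7.05 FPKM in wild type. Of the 264 FPKM, Krt18 gave 143.75 and Krt8 gave 93.64, both keratins of many epithelia. The CPM of all 10 mesothelial markers were higher in every CD44 KO library, where 19.7% of all tested genes separated this way. edgeR called 1 of them higher (Krt19, log2 fold change 3.66, adjusted p 0.0473) and DESeq2 called 8, beside 1.74% and 9.92% of all genes. The Krt19 call was kept in 1 of 6 fits without 1 library. That fit, without CD44 KO replicate 1, called 7.13% of all genes higher, and the others called 0% to 1.74%. CD44 KO replicate 1 had a mean correlation over genes of 0.908 with the other CD44 KO libraries and 0.932 with wild type. The first mean takes in CD44 KO replicate 2, which had the lowest such mean of the CD44 KO libraries, 0.89. It therefore does not show that replicate 1 was closer to wild type than to CD44 KO replicate 3. Macrophage markers summed to 3651, 173 and 637 FPKM in CD44 KO replicates 1 to 3 and to 3462, 8627 and 6721 FPKM in wild type replicates 1 to 3. In bulk tissue, fewer cells of a type and less RNA per cell cannot be told apart.

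Of the 10 genes, 9 lie on chromosome 3 in GRCm38, 7 of them between 90511034 (the end of S100a1) and 90695721 (the start of S100a9), and S100a11 and S100a10 between 93520488 and 93564643. S100b lies on chromosome 10 from 76253853 to 76261159. S100a1 and S100a13 point away from each other, with annotated starts 43 bases apart and no shared bases. S100a4 shares 302 of its 584 exonic bases with the gene model Gm42674 on the same strand, which has 0 counts in every library.

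Start regions are shown for the 5 genes with the widest log2 fold changes between the genotypes, to let the neighbours in the cluster be compared. RefSeq gives windows of 250 bases before to 50 after a start for 9 of the 10 genes (GRCm38.p6), S100a10 not among them. Capitals mark matches on either strand to 5 motifs. The TATA box was searched as TATAAA, which 13.6% of all 32851 windows of this length hold. The box known by its letters CCAAT is in 37.4% of the windows. The GC box, GGGCGG, is in 35.7%. The AP-1 site, TGANTCA, is in 7.81%. The C/EBP site, TTGCNNAA, is in 10.8%. The windows, 5′ to 3′ on the strand of each gene, are chr3:90668821-90669120 (plus, S100a8), chr3:90695672-90695971 (minus, S100a9), chr3:90603520-90603819 (plus, S100a4), chr3:90612644-90612943 (plus, S100a6) and chr3:90514281-90514580 (minus, S100a1).
S100a8: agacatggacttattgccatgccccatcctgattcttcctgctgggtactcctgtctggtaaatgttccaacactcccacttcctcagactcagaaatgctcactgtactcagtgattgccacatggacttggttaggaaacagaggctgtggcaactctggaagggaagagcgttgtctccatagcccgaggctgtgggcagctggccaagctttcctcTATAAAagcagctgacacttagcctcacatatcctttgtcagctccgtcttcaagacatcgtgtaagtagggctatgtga
S100a9: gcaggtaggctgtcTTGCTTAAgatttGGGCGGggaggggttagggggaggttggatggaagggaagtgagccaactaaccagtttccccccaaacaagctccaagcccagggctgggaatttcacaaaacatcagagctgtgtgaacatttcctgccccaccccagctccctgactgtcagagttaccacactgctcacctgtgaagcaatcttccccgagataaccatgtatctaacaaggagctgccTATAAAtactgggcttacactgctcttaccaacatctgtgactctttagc
S100a4: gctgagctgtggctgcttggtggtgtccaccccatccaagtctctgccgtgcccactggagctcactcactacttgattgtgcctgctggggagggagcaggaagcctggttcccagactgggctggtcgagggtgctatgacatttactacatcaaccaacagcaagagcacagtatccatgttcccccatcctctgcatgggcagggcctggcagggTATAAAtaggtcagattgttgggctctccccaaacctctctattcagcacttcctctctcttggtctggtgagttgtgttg
S100a6: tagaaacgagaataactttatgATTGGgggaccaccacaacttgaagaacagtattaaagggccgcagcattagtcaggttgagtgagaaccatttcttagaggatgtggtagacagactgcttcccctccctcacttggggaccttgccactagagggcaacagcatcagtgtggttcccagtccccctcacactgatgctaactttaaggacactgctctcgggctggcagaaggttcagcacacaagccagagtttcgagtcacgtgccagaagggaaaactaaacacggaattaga
S100a1: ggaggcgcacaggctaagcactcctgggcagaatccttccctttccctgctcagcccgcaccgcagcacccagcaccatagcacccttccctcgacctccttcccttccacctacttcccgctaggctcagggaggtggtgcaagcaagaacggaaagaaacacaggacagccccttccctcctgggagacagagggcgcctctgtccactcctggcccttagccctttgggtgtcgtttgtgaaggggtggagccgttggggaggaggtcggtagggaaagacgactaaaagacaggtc
S100a8 and S100a4 hold a TATA box at positions -30 and -31 from the start. S100a9 holds one at its annotated start itself, with a C/EBP match at -236 and a GC box at -223. S100a6 has a CCAAT box at -228 and no other match. The S100a1 window has no match and shares 204 bases with that of S100a13, which has none either. A match describes letters and not binding.

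Taken per transcript length, S100a11 was the most abundant of the genes in both genotypes, at 639 ± 74.9 FPKM in CD44 KO and 819 ± 141 FPKM in wild type (mean ± SD, n = 3 each). It was followed by S100a10 at 333 ± 116 and 439 ± 35.7 FPKM. The lowest in CD44 KO was S100b at 0.960 ± 0.606 FPKM and the lowest in wild type was S100a9 at 1.19 ± 0.432 FPKM. Wild type libraries separated S100a11, the S100a10 and S100a6 pair, S100a4, the group of S100a1, S100a16, S100a13 and S100a8, and the pair S100b and S100a9, with ranges that overlapped between neighbours inside these groups. In CD44 KO the ranges of neighbours from S100a10 down to S100a13 overlapped throughout, and S100a9 and S100a8 overlapped. S100a1 had rank 3 in CD44 KO and rank 5 in wild type.

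**Figure D1:**
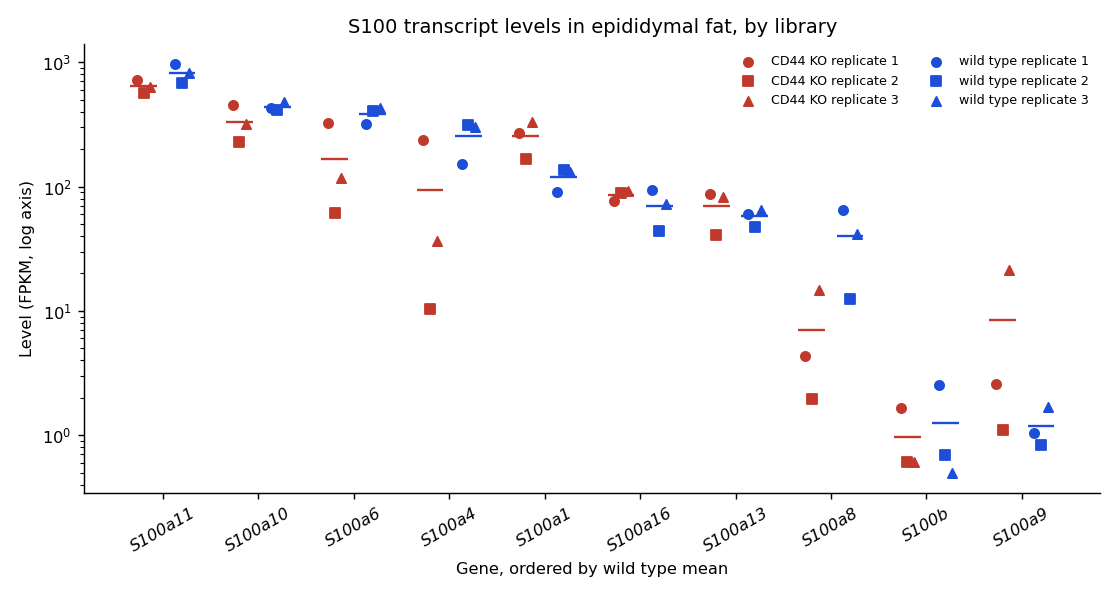
Levels of the 10 S100 transcripts in FPKM on a log axis, by gene (ordered by the wild type mean). Points are single libraries of CD44 KO and wild type, and lines are group means; S100a1 is the gene whose CD44 KO points, at 166 to 329 FPKM, all lie above its wild type points, at 90.4 to 135 FPKM.

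None of the 10 genes was called changed between the genotypes. The edgeR quasi-likelihood test, with Benjamini-Hochberg adjustment over 13829 genes and calls at an adjusted p under 0.05, gave 0 lower and 0 higher, where 0.882% and 1.74% of all tested genes were called lower and higher (2.62% in either direction). Before adjustment, p was under 0.05 for 1 lower (S100a8) and for 2 higher (S100a1 and S100a9), beside 14.7% and 16.3% of all tested genes. DESeq2 called the same 3, with 9.74% and 9.92% of its genes called. Fold changes were negative for 6 genes and positive for 4, with a median log2 fold change of -0.33 beside 0.03 over all tested genes. The CPM (library-scaled counts) of the genotypes did not overlap for 1 gene, S100a1, which was higher in CD44 KO, and for 0 genes lower in it, where 19.7% and 18.1% of all tested genes separated in these directions. Without CD44 KO replicate 2, the library with epididymis transcripts, each of the 10 log2 fold changes kept its sign, with values from -2.04 for S100a8 to 3.35 for S100a9. In that fit edgeR called 0 genes of the group, beside 0.257% of all genes lower and 0.457% higher.

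**Figure D2:**
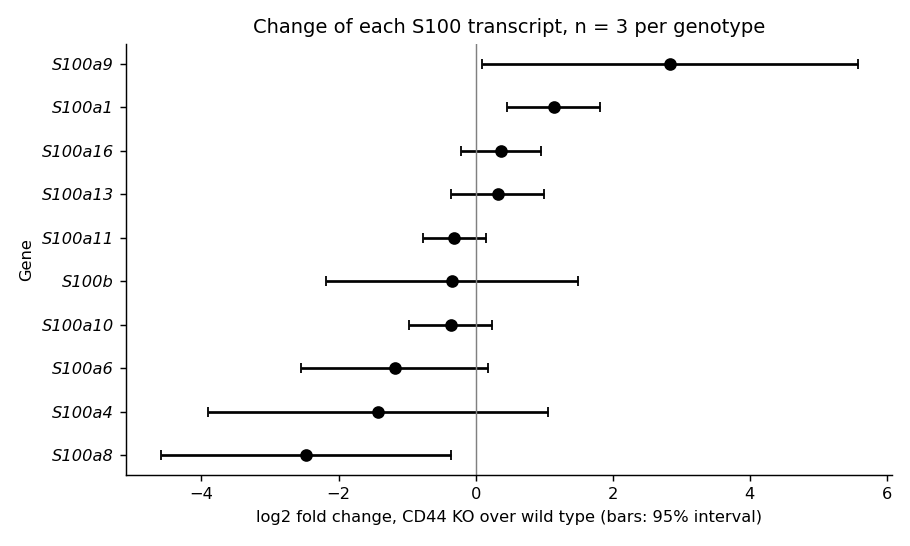
The log2 fold change (CD44 KO over wild type, x axis) of each S100 gene (y axis) from the edgeR fit on 3 libraries per genotype. Points are estimates and bars are 95% intervals not adjusted for the number of genes; 3 intervals leave out 0 (S100a8, S100a1 and S100a9), the one of S100a9 reaching from 0.09 to 5.57.

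S100a8 and S100a9, the partners of calprotectin, stood on opposite sides, S100a8 with lower and S100a9 with higher mean levels in CD44 KO. S100a8 stood at 4.32, 1.97 and 14.69 FPKM in CD44 KO, against 65.33, 12.56 and 41.34 FPKM in wild type. CD44 KO replicate 3 lay above wild type replicate 2, so the genotypes overlapped, though the other CD44 KO libraries lay below every wild type library. Its log2 fold change was -2.47 (SE 0.87, 95% interval -4.59 to -0.36, edgeR adjusted p 0.125). Without CD44 KO replicate 3 it was -3.61 and without wild type replicate 1 it was -1.90.

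S100a9 stood at 2.57, 1.10 and 21.44 FPKM in CD44 KO, against 1.05, 0.84 and 1.67 FPKM in wild type. One library carried most of it: CD44 KO replicate 3 had 171 counts and the other 5 libraries had 8 to 22. The log2 fold change of S100a9 was 2.83 (SE 1.14, edgeR adjusted p 0.152), and without CD44 KO replicate 3 it was 0.66 (edgeR adjusted p 0.558).

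In FPKM the ratio of S100a8 to S100a9 was 1.68, 1.79 and 0.685 in CD44 KO, against 62.2, 14.95 and 24.8 in wild type, with no overlap. Its geometric mean was 1.27 in CD44 KO and 28.5 in wild type, 22.4-fold lower in CD44 KO. The exact permutation test gave a two-sided p of 0.1, the smallest that 3 against 3 libraries allow, and an adjusted p of 0.167 over the 5 ratios of this kind that were computed. The 5 gene pairs were chosen after their values were seen. The ratio in wild type rests on 9, 8 and 16 counts of S100a9, against 530, 113 and 377 of S100a8.

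Markers of neutrophils were sparse. Only 6 of 14 passed the filter on low counts, and edgeR called 0 of these. Before adjustment 1 lower and 2 higher had p under 0.05, beside 14.7% and 16.3% of all genes. DESeq2 called 1 lower and 1 higher, beside 9.74% and 9.92%. Their median log2 fold change was 0.31 beside 0.03 over all genes. The summed level of all 14 was 33.4, 70.3 and 30.5 FPKM in CD44 KO, against 27.7, 17.7 and 25.4 FPKM in wild type. Lcn2 and Ltf, which other cells also make, carried most of these sums: Ltf gave 44.67 FPKM in CD44 KO replicate 2, and Lcn2 gave 17.44 FPKM in CD44 KO replicate 3 and 21.87 FPKM in wild type replicate 1. The defining surface and granule genes Ly6g and Camp had 2, 0, 3 and 3, 0, 8 counts in CD44 KO and 0 counts in every wild type library. Retnlg, a secreted neutrophil protein gene, had 3, 0 and 49 counts in CD44 KO and 3, 3 and 1 in wild type, and Ngp, a granule protein gene, had 2, 0 and 17 against 0, 2 and 0. Of the 14 markers, 6 had their highest count in CD44 KO replicate 3, the library with high S100a9: Ly6g, Camp, Ngp, Retnlg, Cxcr2 and Mmp8. Lcn2, Elane and Mmp9 were highest in CD44 KO replicate 1. Il1r2 had 2, 0 and 2 counts in CD44 KO, against 27, 18 and 20 in wild type, and Csf3r, the receptor gene for a neutrophil growth factor, had 137, 10 and 76, against 119, 137 and 128. Ltf and Cd177 were highest in CD44 KO replicate 2, with 1356 and 25 counts. The 4 of lowest p were Elane, Il1r2, Ltf and Lcn2, with log2 fold changes of 2.81, -3.76, 5.84 and 0.33 and edgeR adjusted p of 0.0633, 0.0645, 0.130 and 0.418. The part of neutrophils in the S100a8 and S100a9 levels was not tested.

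Transcription factors known to act on S100a8 and S100a9 gave 0 calls by edgeR among 6 tested of 7, with a median log2 fold change of -0.18. Before adjustment 1 lower and 1 higher had p under 0.05, beside 14.7% and 16.3% of all genes. DESeq2 called 1 of each, beside 9.74% and 9.92%. Hif1a, the oxygen-sensing factor, had the lowest p at a log2 fold change of -0.64 (edgeR adjusted p 0.0673). The others of low p were Cebpa, an adipocyte and myeloid factor, at 1.03 (0.0920), Cebpd at 0.85 (0.164) and the myeloid factor gene Spi1 at -2.27 (0.201).

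S100a4 and S100a6 split the knockout libraries. S100a4, whose protein binds non-muscle myosin, stood at 236.52, 10.38 and 36.43 FPKM in CD44 KO, against 152.92, 310.56 and 302.19 FPKM in wild type. CD44 KO replicate 1 lay within the wild type range and the other CD44 KO libraries lay far below it. The log2 fold change of S100a4 was -1.42 (SE 1.03, 95% interval -3.91 to 1.06, edgeR adjusted p 0.366). S100a6, whose protein calcyclin binds annexins, stood at 323.02, 61.28 and 118.23 FPKM in CD44 KO, against 318.69, 405.15 and 430.17 FPKM in wild type. Again CD44 KO replicate 1 lay just inside the wild type range and replicates 2 and 3 below it, at -1.18 on the log2 scale (SE 0.56, edgeR adjusted p 0.203).

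Without CD44 KO replicate 1 both were called lower. S100a4 then had a log2 fold change of -3.40 (edgeR adjusted p 0.0276) and S100a6 one of -2.05 (0.0239), in a fit that called 9.65% of all genes lower and 7.13% higher. Without CD44 KO replicate 2 they stood at -0.90 and -0.80 and were not called. The macrophage marker sum given above put the libraries in the same order as S100a4: wild type replicates 2 and 3, CD44 KO replicate 1, wild type replicate 1, CD44 KO replicate 3 and CD44 KO replicate 2. S100a6 differed from this order only at the top, where wild type replicate 3 exceeded replicate 2. In the macrophage sum, the place of CD44 KO replicate 1 above wild type replicate 1 rests on Lyz2 and Gpnmb. Lyz2 stood at 1774.05 and 1364.14 FPKM in these libraries, and Gpnmb at 474.12 and 260.5 FPKM. Other markers went the other way, among them Cd68 at 309.24 and 343.95 FPKM and C1qb at 289.65 and 438.56 FPKM. The log2 fold change was below 0 for 14 of 14 macrophage markers, with a median of -2.14. With all libraries edgeR called 0 of them, though 5 had p under 0.05 before adjustment and DESeq2 called 5 lower, and 12 were called lower by edgeR without CD44 KO replicate 1. Over all genes 14.7% were lower with p under 0.05 before adjustment, and DESeq2 called 9.74% lower. The part of macrophages in these values was not tested.

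**Figure D3:**
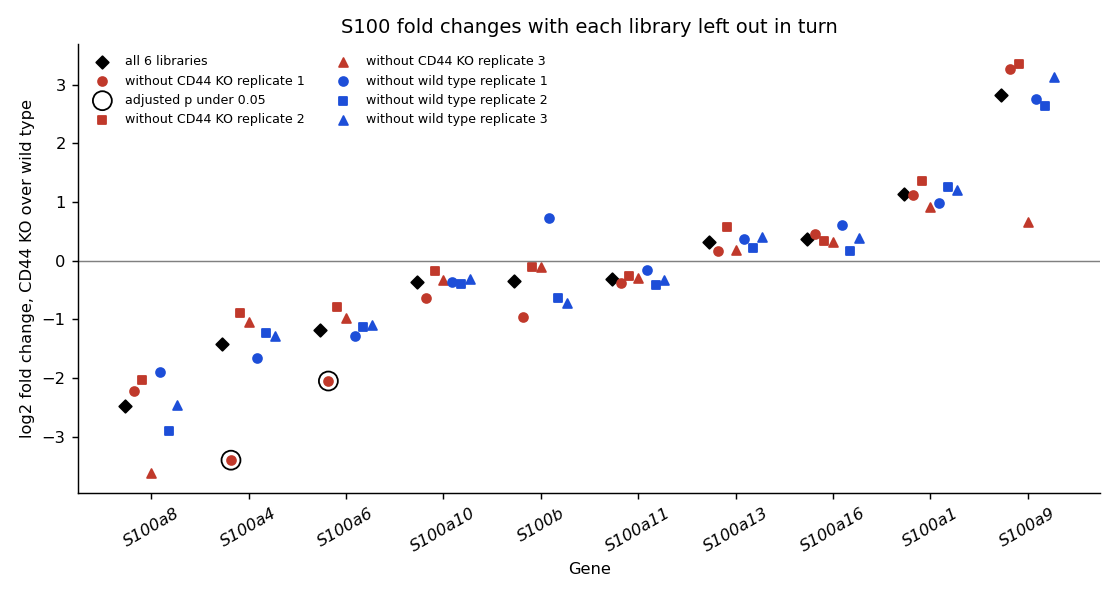
The log2 fold change (CD44 KO over wild type, y axis) of each S100 gene (x axis) with all 6 libraries, as black diamonds, and with each library left out in turn. Circled points have an edgeR adjusted p under 0.05: S100a4 at -3.40 and S100a6 at -2.05, both without CD44 KO replicate 1, and S100a9 drops to 0.66 without CD44 KO replicate 3.

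Fibroblast and adipocyte progenitor markers, another source of S100a4 and S100a6, summed to 1235, 506 and 1050 FPKM in CD44 KO, against 1949, 2410 and 2282 FPKM in wild type, with no overlap. edgeR called 2 of these 12 lower, Thy1 and Pi16, and DESeq2 called 9, beside 0.882% and 9.74% of all genes. Without CD44 KO replicate 1 edgeR called 7, in a fit that called 9.65% of all genes lower. Of the 6 fits without 1 library, Thy1 was called in that one alone. Pi16 was called in that one and in the one without CD44 KO replicate 2. Apart from the fit without CD44 KO replicate 1, these fits called 0% to 0.435% of all genes lower. Their median log2 fold change was -1.76. Monocyte markers summed to 111, 60.2 and 72.1 FPKM in CD44 KO, against 202, 325 and 236 FPKM in wild type, with 1 of 9 called lower by edgeR (Fn1) and 3 by DESeq2. Without 1 library, Fn1 was called in 1 of 6 fits, the one without CD44 KO replicate 1. Fn1 gave 105.70, 164.16 and 114.19 FPKM of the wild type monocyte sums. The part of progenitors and monocytes in the S100a4 and S100a6 values was not tested. The profiles nearest to S100a4 over the 6 libraries, by root mean square difference of centred log2 CPM, were Vav1 (0.194), Myo1g (0.195) and Fcer1g (0.196), and those nearest to S100a6 were Phf11b (0.0861), Tgfbi (0.0921) and Tedc1 (0.102).

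S100a1, whose protein regulates calcium release channels and pumps in muscle, was the gene nearest to a call. It stood at 269.26, 165.77 and 329.13 FPKM in CD44 KO, against 90.40, 135.17 and 130.16 FPKM in wild type. Every CD44 KO library lay above every wild type library. The fold was 2.21 (95% interval 1.38 to 3.53; log2 fold change 1.14, SE 0.28, edgeR adjusted p 0.0739), and over the 14 alternatives its log2 fold change ran from 0.92 to 1.35 with an adjusted p of 0.00632 to 0.265. For 9 of the 10 genes the p-value in the authors' deposited table equals that of DESeq2 run here on the rounded counts (relative tolerance 1e-04), so the deposited calls are not separate from the DESeq2 ones. The authors' deposited table gives S100a1 a log2 fold change of 1.10 and an adjusted p of 0.00767, S100a8 -2.51 and 0.0193, and the other 8 genes an adjusted p of 0.0551 or more.

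Markers of adipocytes had higher sums in CD44 KO, as did S100a1. They summed to 35113, 27051 and 47840 FPKM in CD44 KO, against 24327, 8721 and 15833 FPKM in wild type, with no overlap. This separation of the sums rests on Cfd (adipsin), without which they would overlap. Cfd gave 9071, 7130 and 16556 FPKM in CD44 KO, against 842, 117 and 286 FPKM in wild type. Fabp4, the largest part of the sums, overlapped, at 12033 FPKM in CD44 KO replicate 2 and 15196 FPKM in wild type replicate 1. Of the 13 markers, 12 had positive log2 fold changes (median 1.56). edgeR called 1 of the 13 higher, Cfd (adipsin), and 0 lower, beside 1.74% and 0.882% of all genes. Before adjustment 9 higher and 1 lower had p under 0.05, beside 16.3% and 14.7%. DESeq2 called 8 higher and 1 lower, beside 9.92% and 9.74%. Without wild type replicate 1 edgeR called 6 higher, in a fit that called 1.74% of all genes higher. Cfd was called in 2 of the 6 fits without 1 library, where either CD44 KO or wild type replicate 1 was left out. These fits called 7.13% and 1.74% of all genes higher, and the others called 0% to 0.457%. Within CD44 KO the order of the libraries was the same for S100a1 and the adipocyte sum, and within wild type it was reversed. The part of adipocytes in the S100a1 level was not tested. Its nearest profiles were Aox3 (0.174), C7 (0.190) and Foxf1 (0.199).

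S100a13, which starts beside S100a1 on the other strand and whose protein takes part in the release of FGF1, did not separate. It stood at 86.52, 40.88 and 82.78 FPKM in CD44 KO, against 59.74, 47.58 and 64.99 FPKM in wild type (log2 fold change 0.32, 95% interval -0.36 to 1.00, edgeR adjusted p 0.453). The amount of S100a1 per S100a13 was 3.11, 4.06 and 3.98 in CD44 KO, against 1.51, 2.84 and 2.00 in wild type. These ratios did not overlap (exact permutation p 0.1, adjusted p 0.167), and their geometric mean was 1.80-fold higher in CD44 KO.

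**Figure D4:**
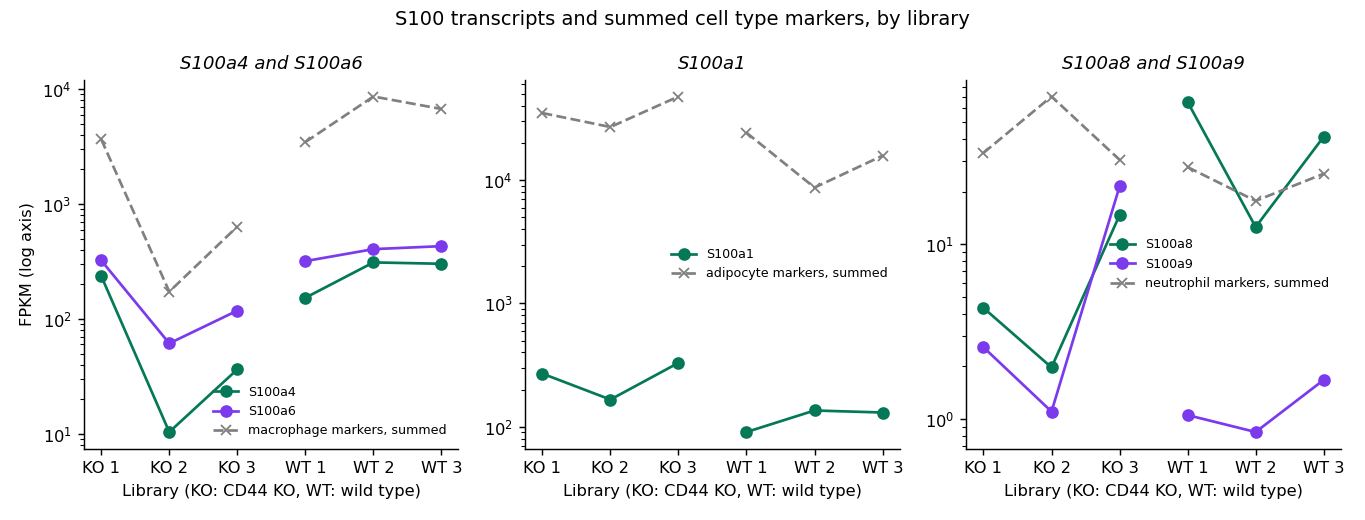
FPKM on a log axis in each library (KO for CD44 KO, WT for wild type) of S100 genes, as filled points, and of summed cell type markers, as dashed lines with crosses. S100a4, S100a6 and the macrophage sum are lowest in KO 2 and KO 3, S100a1 and the adipocyte sum are higher in KO, and S100a9 peaks in KO 3 at 21.44 FPKM while S100a8 is highest in WT 1 at 65.33 FPKM.

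S100a10 and S100a11, partners of annexins, had small fold changes and neither was called. S100a10 pairs with annexin A2 in a complex at the plasma membrane and is known for having lost calcium binding. It stood at 456.56, 226.56 and 316.14 FPKM in CD44 KO, against 429.66, 409.70 and 479.07 FPKM in wild type, with CD44 KO replicate 1 inside the wild type range (log2 fold change -0.36, 95% interval -0.97 to 0.24, edgeR adjusted p 0.347). S100a11, a partner of annexin A1, stood at 716.65, 567.15 and 632.79 FPKM in CD44 KO, against 960.96, 679.41 and 815.32 FPKM in wild type. Only CD44 KO replicate 1 reached into the wild type range of S100a11 (log2 fold change -0.31, 95% interval -0.77 to 0.14, edgeR adjusted p 0.293).

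Anxa2 and Anxa1, the annexin genes, had the larger differences. Anxa2 stood at 1095.52, 539.70 and 690.19 FPKM in CD44 KO, against 1620.88, 1496.44 and 1621.00 FPKM in wild type (log2 fold change -0.99, edgeR adjusted p 0.0948). S100a10 per Anxa2 was 0.417, 0.420 and 0.458 in CD44 KO, against 0.265, 0.274 and 0.296 in wild type. The ratio varied little within a genotype, did not overlap between them and was 1.55-fold higher in CD44 KO (exact permutation p 0.1, adjusted p 0.167). S100a11 per Anxa1 was 1.45, 3.47 and 2.99 in CD44 KO, against 1.54, 0.512 and 0.726 in wild type, and overlapped (p 0.2 in the same exact test).

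S100a16, a gene tied to adipocyte differentiation in mouse cells, stood at 75.81, 88.37 and 91.63 FPKM in CD44 KO, against 93.04, 44.06 and 72.06 FPKM in wild type. In FPKM the CD44 KO libraries lay within the wild type range, and in CPM replicates 2 and 3, at 95.4 and 96.3, lay above the highest wild type value of 90.3 (log2 fold change 0.37, 95% interval -0.21 to 0.96, edgeR adjusted p 0.323). S100b, known as a glial protein that adipocytes also make, was near the limit of detection with 41, 16 and 14 counts in CD44 KO, against 63, 19 and 14 counts in wild type. Its log2 fold change was -0.34 (95% interval -2.18 to 1.501, edgeR adjusted p 0.785) and turned to 0.72 without wild type replicate 1, the library with the most counts. Of 10 Schwann cell markers, glial cells of nerves, 6 passed the filter and edgeR called 0, with sums of 20.0 to 67.1 FPKM in CD44 KO and 25.8 to 34.9 FPKM in wild type. Before adjustment 2 higher had p under 0.05, beside 16.3% of all genes, and DESeq2 called 1 higher, beside 9.92%.

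As a pool the 10 transcripts summed to 2173, 1164 and 1644 FPKM in CD44 KO, against 2174, 2046 and 2337 FPKM in wild type. They made up 0.398%, 0.206% and 0.299% of all FPKM in CD44 KO, against 0.415%, 0.416% and 0.440% in wild type. CD44 KO replicate 2, with the lowest share, is the library with epididymis transcripts. S100a10 held a nearly fixed part of the pool, 19.2% to 21.0% in CD44 KO and 19.8% to 20.5% in wild type. S100a1 made up 15.6 ± 3.98% of the pool in CD44 KO and 5.44 ± 1.23% in wild type (SD, n = 3 each), without overlap. S100a4 made up 10.9%, 0.892% and 2.22% in CD44 KO, against 7.03%, 15.2% and 12.9% in wild type, where the first CD44 KO library again stood inside the wild type range. Shares are bound to sum to the whole, so a lower share of S100a4 and S100a6 raises the others.

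**Figure D5:**
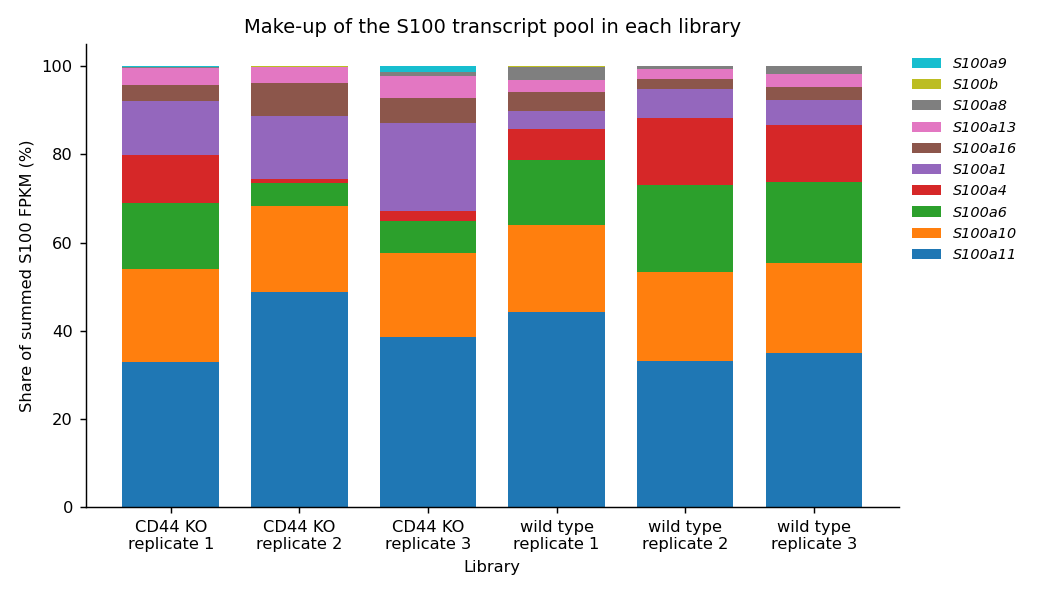
Share of each gene in the summed FPKM of the 10 S100 transcripts (y axis, percent) in each library (x axis, CD44 KO left of wild type). The S100a1 band covers 12.4% to 20.0% of the CD44 KO bars and 4.16% to 6.61% of the wild type bars, and the S100a10 band has nearly the same height in all 6.

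Receptors and adaptors of released S100 proteins gave no call. edgeR called 0 of 10. Before adjustment 3 lower had p under 0.05, beside 14.7% of all genes, and DESeq2 called 3 lower, beside 9.74%. Of the 10, 9 had negative log2 fold changes, where 6610 of all 13829 tested genes did. Their median was -0.67 beside 0.03 over all genes. The lowest p belonged to Alcam, an adhesion receptor bound by S100B, at -1.66 on the log2 scale (SE 0.44, edgeR adjusted p 0.0827). It stood at 29.43, 11.33 and 9.39 FPKM in CD44 KO, against 29.14, 85.59 and 54.31 FPKM in wild type. Nptn, which encodes the S100A8 receptor neuroplastin, and Ly96, the TLR4 co-receptor gene, stood at -0.82 and -0.88 (edgeR adjusted p 0.0864 and 0.114). The adaptor gene Myd88 stood at -0.44 (0.178). Without CD44 KO replicate 1 edgeR called 3 of the 10 lower, Alcam, Nptn and Ly96, in a fit that called 9.65% of all genes lower. The summed FPKM of the list put the 6 libraries in the same order as the progenitor and monocyte sums, but Cd36 alone made up most of it. Cd36 gave 1827, 1517 and 1673 FPKM of sums of 2366, 1851 and 2098 FPKM in CD44 KO. In wild type it gave 1994, 2876 and 2546 FPKM of 2558, 3534 and 3229 FPKM. The order is thus that of 1 gene and does not describe the list, and the part of progenitors and monocytes was not tested.

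Partners of S100 proteins inside cells had negative log2 fold changes in 17 of 24 cases, beside 6610 of 13829 over all tested genes. Of 26 listed, 24 passed the filter, and their median log2 fold change was -0.51. edgeR called 1 lower and 0 higher, beside 0.882% and 1.74% of all genes. Before adjustment 12 lower and 2 higher had p under 0.05, beside 14.7% and 16.3%. DESeq2 called 8 lower and 2 higher, beside 9.74% and 9.92%. The called gene was Ryr1, which encodes the calcium release channel of skeletal muscle, a target of S100A1. It fell to 0.08, 0.05 and 0.02 FPKM in CD44 KO, against 0.39, 0.48 and 0.33 FPKM in wild type (log2 fold change -2.92, SE 0.51, edgeR adjusted p 0.0446). This call was made in 5 of 14 alternatives and was lost in 5 of the 6 fits without 1 library, with edgeR adjusted p of 0.0680 to 0.236, but not without CD44 KO replicate 1. Those 5 fits called 0% to 0.435% of all genes lower, against 0.882% with all libraries. The loss is thus not particular to Ryr1. Its heart form Ryr2 stood at -2.22 (0.0522), Dlc1 at 1.22 (0.0720), Anxa1 at -1.79 (0.0875) and Anxa5 at -0.85 (0.0898). Skeletal muscle markers summed to 29.9 to 52.6 FPKM in CD44 KO and 14.8 to 58.6 FPKM in wild type, with 0 of 2 tested called. Those 2 of the 8 listed, Acta1 and Myl1, gave nearly all of these sums, and the others had too few counts to pass the filter.

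Other family genes of the table were near silent. S100a7l2 had 0 counts in each CD44 KO library, against 36, 11 and 38 counts in wild type (edgeR adjusted p 0.0574, not called). It passed the filter on low counts through wild type alone, so this p is no separate support for a difference. With the CD44 KO group set to a floor of 3 counts in all, the level was 25.4-fold lower. That floor covers counting error only and not the spread between libraries. S100g, the intestinal calcium carrier calbindin, had 0, 1 and 0 counts in CD44 KO, against 10, 4 and 21 in wild type, and did not pass the filter. Its ratio of CD44 KO to wild type was 0.0319, with an exact 95% interval of 0.000786 to 0.190 that covers counting error only. S100a3, S100a7a and S100a14 had at most 11 counts in any library, and S100a2, S100a5 and S100z had 0 in all. S100pbp, which encodes a protein that binds S100P in human cells, stood at a log2 fold change of 0.26 (edgeR adjusted p 0.427).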

How the data were processed

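RNA of 6 libraries was sequenced, and the deposited table holds expected counts and FPKM for each gene. Per the submitters' processing notes, HISAT2, StringTie 1.3.1, RSEM and DESeq2 were used, without stated roles; the build is not given in the sources used here, nor are annotation and strandedness. The authors' expected counts are estimated counts that were not scaled, and the authors' FPKM divide them by length and depth. A second deposited table holds the counts after rounding, FPKM, a log2 fold change of the authors' mean FPKM and p-values that equal DESeq2's for 9 of the 10 members.

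Expected counts were rounded and fitted with edgeR 4.0.16 in R 4.3.3: filterByExpr by genotype (13829 genes), TMM scaling, robust quasi-likelihood F-test of CD44 KO against wild type, Benjamini-Hochberg adjustment over all genes, calls at an adjusted p under 0.05. SE is the absolute log2 fold change over the square root of F, and 95% intervals use the moderated degrees of freedom. The fits were also run on simulated counts. edgeR was run at the spread of these data and at a narrower one, DESeq2 and limma at the narrower one only. Results of these runs are not given here and do not bear on the calls. CPM use TMM-scaled library sizes, log2 CPM a prior count of 2. Levels are compared between genes in FPKM only. Alternatives used DESeq2 1.42.0, limma 3.58.1 on log2(FPKM + 1) and log2(FPKM + 0.1), other scalings and left-out libraries. A floor of 3 counts covers counting error only; 3 counts are 0.157 to 0.194 CPM here. Positions come from GENCODE M21 by Ensembl identifier, promoter windows from RefSeq by symbol.

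All 10 members were described. From the receptor, partner, factor and neutrophil lists the called genes and up to 4 of lowest p were named. From the other marker lists the called genes were named. Anxa2, Krt8, Krt18 and the neutrophil genes without an adjusted p, Csf3r and Mmp9 were chosen after their values were seen. So were Cd36, Lyz2, Gpnmb, Cd68, C1qb, Fabp4, Acta1 and Myl1. For each tested member the 3 nearest named profiles were found. The members, lists and tests were chosen with earlier results of these data known.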

Additional observations from a re-analysis of the deposited data

How the results depend on the processing

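With all 6 libraries edgeR called 0 of the 10 S100 genes lower and 0 higher. By DESeq2, 1 was lower (S100a8) and 2 were higher (S100a1 and S100a9), and it gave S100a4 no adjusted p. The other scalings, no filter, no robust estimation and both limma fits on FPKM left 0 in each direction. Leaving out 1 library gave 0 to 2 lower and 0 to 0 higher, the 2 being S100a4 and S100a6 without CD44 KO replicate 1. The cause was not tested. That fit called 9.65% of all genes lower and 7.13% higher. The others called 0% to 0.435% lower and 0% to 1.74% higher, so few genes of any kind could be called in them. Over 14 alternatives the log2 fold change kept its sign for 9 of the 10 genes; that of S100b ran from -0.96 without CD44 KO replicate 1 to 0.72, reversed, without wild type replicate 1. Replicate numbers in the labels do not pair the samples: same-numbered libraries had correlations of their deviations of -0.321, -0.218 and -0.018. With the replicate block 0 S100 genes were called lower and 0 higher, and 0 of all genes. Depth limits S100b, with 14 to 63 counts, and S100a9, with 8 to 22 counts in 5 of the 6 libraries.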

Other observations

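The profiles nearest to the other S100 genes over the 6 libraries, by root mean square difference of centred log2 CPM, are given as a description. S100a8 had distant neighbours, Cyp2c23 at 0.624, Gbp10 at 0.625 and Orm2 at 0.650. S100a9 was nearest to the immediate early gene Fosb at 0.332, then to Tgtp2 at 0.570 and Nr4a1 at 0.578. For S100a10 they were Pin4 at 0.0533, Rpusd1 at 0.0671 and Lfng at 0.0866. For S100a11 they were Med7 at 0.0416, Mrps18b at 0.0460 and Gatad1 at 0.0479. S100a13 was nearest to Nenf, Gstp2 and Flt3l, at 0.0729 to 0.102, and S100a16 to Smpd2, Ndufb7 and Idnk, at 0.0478 to 0.0693. S100b was nearest to Tspan32, Pcdhb10 and Jaml, at 0.328 to 0.363.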
